A study of Mus musculus with 16 samples.

Results

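Broad Pol2 domains are stretches of at least 3 kb over which RNA polymerase II (Pol2) was enriched without a break in LPS-treated mouse B cells. Chromosomes 1 to 19 were divided into 500-bp bins, and each read was placed by its midpoint. A bin qualified when the Pol2 library of LPS-treated B cells held 5 or more reads and its RPM, its reads scaled to those on chromosomes 1 to 19 in units of 1000000, reached at least 4 times the pooled IgG RPM of the same cells plus 0.1. Of the 32015 runs of consecutive qualifying bins, 502 (1.57%) held 6 bins or more, and these are the broad domains. They were chosen by Pol2 without 10058-F4 and IgG of the same cells, so their width, Pol2 level and IgG level are a description and were not tested.

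Pol2 transcribes protein-coding genes, gathers near promoters where it can pause, and spreads into the gene body while it elongates. A broad stretch of Pol2 signal can therefore hold a promoter peak together with the transcribed body next to it, or several neighbouring promoters. Myc is a transcription factor that binds promoters and enhancers of genes that are being transcribed, together with its partner Max. Lipopolysaccharide (LPS), a bacterial cell wall component, activates resting B cells and induces Myc. The compound 10058-F4 is known as an inhibitor of the pairing of Myc with Max.

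All cells came from mouse spleen. The groups were B cells given 25 µg/ml LPS together with 10058-F4 for 4 h (1 Pol2, 1 Myc and 2 IgG libraries), B cells given the same LPS for 4 h alone (1 Pol2, 2 Myc and 3 IgG libraries), untreated B cells (1 Myc and 1 IgG library), and T cells given 7.5 µg/ml of the T cell mitogen concanavalin A for 4 h or 14 h (1 Myc and 1 IgG library at each time). Antibodies were directed to the fluorescent protein EGFP in the Myc libraries and to the polymerase in the Pol2 libraries, and were non-specific in the IgG libraries. The titles of the Pol2 library without 10058-F4 and of IgG replicate 2 of LPS alone carry the mark wt, whose meaning the labels used here do not give, and no other title carries it. The IgG library so marked was pooled with the other IgG libraries of LPS alone. The labels give no strain, sex, age or number of animals and no dose of 10058-F4, so p-values measure the spread between these libraries, which may be technical. Judging by its title, the study asked if Myc amplifies expression broadly.

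The 16 libraries held 1278471 to 7433203 reads on chromosomes 1 to 19, with 5130471 in the Pol2 library with 10058-F4 and 2377368 in the one without. No Pol2 group had a second library, so no Pol2 difference between the treatments has a replicate check. Titles and file names give opposite antibodies to the 2 libraries of T cells at 14 h, which are called here by their titles, as the library labelled T14 Myc and the library labelled T14 IgG. Reads on chromosome X came to 35.1% of those on chromosome 3 in the Pol2 library with 10058-F4 and 36.9% in the one without. The Myc library with 10058-F4 had 62.4%, the LPS Myc libraries 65.6% and 69.8%, and the untreated B cell Myc library 42%. The IgG libraries of LPS alone had 66.4%, 36.8% and 65.9% in replicates 1 to 3, and replicate 2 is the one marked wt. Those with 10058-F4 had 38.7% and 60.1%. The Pol2 and Myc libraries of the same treatment thus differed in this ratio, as did the pooled IgG libraries of 1 treatment. The part of this ratio in the results was not tested.

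The broad domains had a median width of 3.5 kb (quartiles 3 and 4.38 kb), and the widest spanned 25 kb. Narrow runs were far more frequent: 20406 runs were a single bin, 6892 were 2 bins and 4215 were 3 to 5 bins wide. Just outside the threshold stood 427 runs of 5 bins, and just inside it 212 runs of 6 bins. Of the broad domains 97 were 5 kb or wider and 10 were over 10 kb. They covered 2.06 Mb, which is 0.0836% of chromosomes 1 to 19, and held 7.78% of the 52912 qualifying bins. When each IgG library of LPS-treated B cells was put through the same rule against the others, 5344 to 27278 runs and 0 broad domains were found. Single bins thus passed in IgG as well, while runs of 6 bins did not occur there. The number of broad domains was 325 without IgG replicate 3, the deepest of the 3, 477 without replicate 1 and 490 without replicate 2.

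**Figure D1:**
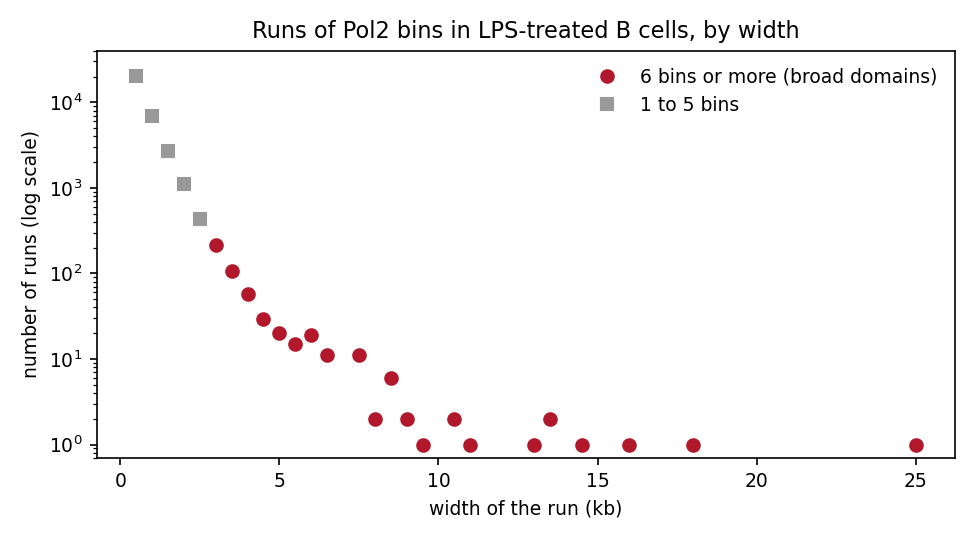
Number of runs of qualifying Pol2 bins (log scale) against the width of the run in kb, with the 502 broad domains in red and runs of 1 to 5 bins in grey. There are 20406 runs of 0.5 kb and 212 of 3 kb, with single domains out to 25 kb.

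The 10 widest were spread over 5 chromosomes, with 4 of them on chromosome 11. The widest was chr13:43795001-43820000 (25 kb), followed by chr7:110062501-110080500 (18 kb), chr13:30760001-30776000 (16 kb) and chr11:98957501-98972000 (14.5 kb). At 13.5 kb stood chr18:60928501-60942000 and chr11:117632001-117645500, and at 13 kb chr11:69215501-69228500. The remaining 3 were chr11:61482001-61493000 (11 kb), chr2:34758501-34769000 and chr7:44987501-44998000 (10.5 kb each). All positions are those of mouse build mm8. No annotation of that build was used here, so domains are named by position and not by gene.

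Domains were unevenly spread over the chromosomes. Chromosome 11 held 58, or 4.76 per 10 Mb, and chromosomes 19 and 17 held 4.57 and 4.52 per 10 Mb. Chromosome 1 held 14, or 0.710 per 10 Mb, and chromosomes 18 and 13 held 0.882 and 0.912 per 10 Mb. The share of all Pol2 runs that were broad varied less, between 0.791% on chromosome 1 and 2.40% on chromosome 17. Narrow runs were thus also denser on chromosomes 11, 17 and 19, at 248, 188 and 196 runs of any width per 10 Mb, against 89.8 on chromosome 1.

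Many broad domains lay close together. Within 20 kb of each other, 171 domains formed 71 groups of 2 to 5, and 25 neighbouring pairs were split by a single bin that missed the threshold. The groups with 5 members were at chr9:44228001-44278500 and chr9:7763001-7793500. Allowing 1 failing bin inside a run raised the number of domains to 1093, since it also joined narrower runs.

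One domain stood apart from all others in its control signal. At chr17:39451001-39457000 the pooled IgG of LPS-treated B cells reached 92.9 RPM per kb, against at most 2.05 in the other 501 domains, whose range starts at 0.273. It held 933 to 8208 reads in every library, IgG libraries included, and its Pol2 level of 506 RPM per kb was only 5.45 times its IgG. Results that sum reads over domains are therefore given without it, and its effect on the sums is given beside them.

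In the library that chose the runs, Pol2 density was higher in the broad domains than in narrow runs. The median was 15.4 RPM per kb over the broad domains (quartiles 11.6 and 19.4), against 12.9 over runs of 3 to 5 bins, 10.1 over runs of 2 and 5.05 over single bins. Runs of 6 and 5 bins had medians of 15 and 13.6 RPM per kb, and domains of 10 bins or more had 18.2. The Pol2 library with 10058-F4, which took no part in the choice, had 18.1 over the broad domains and 17.8 over runs of 3 to 5 bins. It had 14.4 over runs of 2 and 3.12 over single bins. In that library runs of 6 and 5 bins had 18.6 and 17.6, and domains of 10 bins or more had 17.3. The broad domains held 3.98% of the Pol2 reads with 10058-F4 and 3.51% of those without, leaving out the domain of high IgG. With it the shares were 4.14% and 3.82%, against 0.215% to 0.479% in the IgG libraries of LPS-treated B cells with or without 10058-F4. Outside that domain the highest densities were 56.1 RPM per kb at chr7:44703001-44712500, 48.0 at chr8:87865501-87870500, 45.6 at chr10:80331501-80337500 and 44.5 at chr15:61813001-61817500.

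Inside a domain Pol2 was unevenly spread. The highest bin was the outermost bin in 65 domains, the second from an edge in 161, the third in 175 and further in in 101. In the 212 domains of 6 bins the third from an edge is a middle bin. In the 97 domains of 10 bins or more the highest bin was within 3 bins of an edge in 41. It held a median of 26.8% of the Pol2 reads of the domain, with a range from 5.73% to 61.9%. The 3 bins at the top held a median of 53.9% of the reads while they made up a median of 42.9% of the width. The widest domain had one of the flatter profiles, with 10.6% of its reads in its highest bin.

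The Pol2 library with 10058-F4 took no part in choosing the domains and showed the same stretches enriched. Its highest bin was the same bin in 302 of the 502 domains (60.2%) and lay within 1 bin in 384 (76.5%), where bins drawn evenly would give 13.6% for the same bin. The 3 bins at the top of the library without 10058-F4 held a median of 54.4% of the reads with 10058-F4 and 53.9% of those without. Averaged over domains around the highest bin, Pol2 was 28.4 times IgG (95% counting interval 27.3 to 29.6) with 10058-F4 and 26.4 times (25.5 to 27.4) without. At 4 kb from that bin along the longer arm both profiles were lower, at 7.60 times IgG (7.17 to 8.07) with 10058-F4 and 7.17 times (6.75 to 7.60) without. Signal there comes partly from outside the domain, since most domains are narrower than that.

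**Figure D2:**
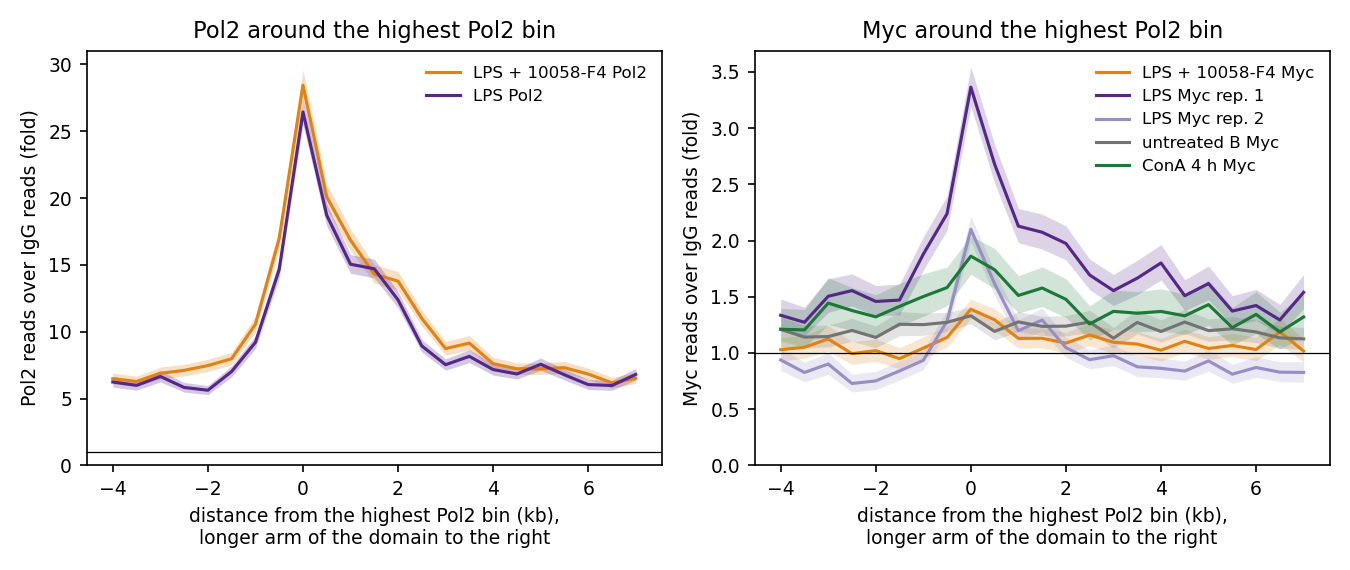
Reads over IgG reads of the same state (fold, linear axes from 0) against the distance in kb from the highest Pol2 bin without 10058-F4, summed over 501 broad domains, with the longer arm of each domain to the right and 95% counting intervals shaded. Left, Pol2 reaches 28.4-fold with 10058-F4 and 26.4-fold without. Right, Myc in LPS-treated B cells reaches 3.36-fold and 2.10-fold in its 2 replicates, and the other Myc libraries stay below 2.

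Pol2 over IgG with 10058-F4 was tested with limma-voom over all 22490 runs that had a mean of at least 2 reads per library. With Benjamini-Hochberg adjustment at 0.05, 487 of the 502 broad domains were higher than IgG and 0 were lower. The Pol2 side of this test is 1 library, which is assumed to vary like the replicated groups. Over all runs tested 78.3% were higher and 0.0845% lower. The share called rose with width, from 66.3% of single bins tested and 86.1% of runs of 2 bins to 94.5% of runs of 3 to 5 bins and 97.0% of the broad domains. Reads per run also rise with width, so the power of the test does too. The filter counts reads of the tested Pol2 library as well. It kept 10920 of the 20406 single bins, which favours single bins with high Pol2 with 10058-F4. The median log2 difference was 4.07 over the broad domains and 3.40 over all runs tested. With no filter on low counts it was 4.07 over the broad domains and 2.71 over all 32015 runs. At an unadjusted p under 0.05 no broad domain was lower either, against 20 of all runs tested. Limma-trend on log2 RPM called 469 higher and 0 lower, against 12641 and 10 of all runs tested.

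The same rule was applied to the Pol2 library with 10058-F4 against its own IgG. Thinned to the read number of the other Pol2 library, it gave 765 broad domains with a median width of 3.5 kb and a largest width of 19 kb. Of these, 299 (39.1%) overlapped a domain found without 10058-F4, and 298 (59.4%) of the 502 domains found without it were overlapped. At full depth it gave 1238 domains, of which 346 (27.9%) overlapped, and 354 (70.5%) of the 502 were overlapped. A median of 85.2% of the bins of a domain qualified in the thinned library, all of them in 170 domains and none in 8. Most domains thus kept qualifying bins with 10058-F4, though often not in 1 unbroken run.

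The change in Pol2 with 10058-F4 was taken as the log2 ratio of RPM with over without the compound, with 0.1 RPM added to each. Over the 502 domains the median was 0.18 (95% interval 0.11 to 0.24), and the quartiles were -0.21 and 0.55. In 316 domains Pol2 was higher with 10058-F4. A 2-fold or larger difference was seen as higher in 30 domains (5.98%) and lower in 40 (7.97%), against 13.2% higher and 11% lower among the 22490 runs tested and 9.24% higher and 33.6% lower among all 32015 runs. The filter of the runs tested counts reads with 10058-F4 and not those without, and it kept 10920 of the 20406 single bins, so runs with few reads with 10058-F4 were more often left out. The filter kept all 4215 runs of 3 to 5 bins, of which 9.87% were higher and 5.91% lower. The median was 0.38 over these, 0.27 over the runs tested and -0.16 over all runs. Counting intervals excluded equality in 213 domains that were higher and 109 that were lower, and these cover counting error only.

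**Figure D3:**
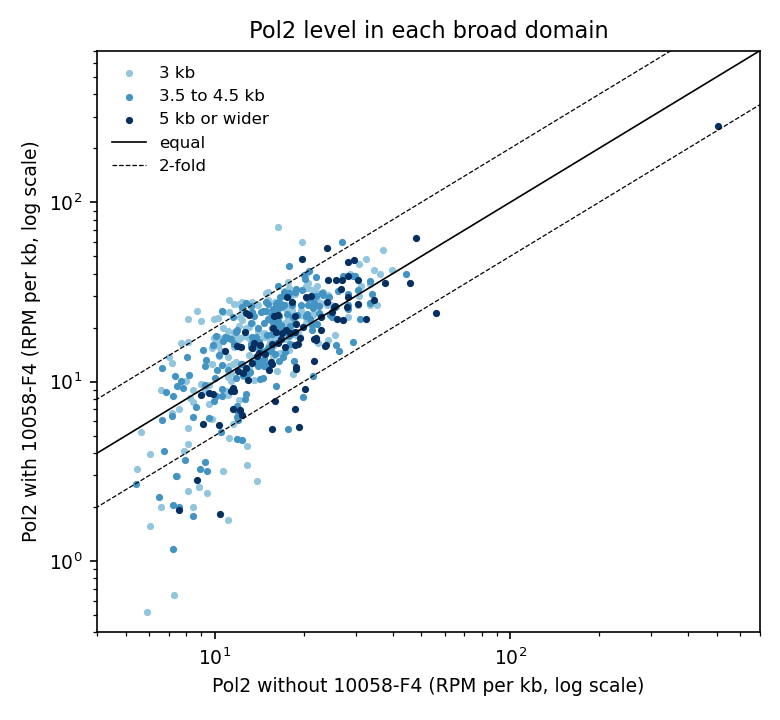
Pol2 level with 10058-F4 against the level without it (RPM per kb, both axes logarithmic), 1 point per broad domain, darker for wider domains. Points lie around the solid line of equality, with 30 above the upper and 40 below the lower 2-fold line, and the domain of high IgG stands alone at 267 RPM per kb with 10058-F4 and 506 without.

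Choosing domains for high Pol2 without 10058-F4 favours high values in that library, so the change was also measured at domains chosen in other ways. At the 765 domains called with 10058-F4 the median log2 ratio was 0.72 (0.67 to 0.77), with 230 domains 2-fold or more higher and 3 lower. At the 298 domains found without 10058-F4 that overlapped one found with it, the median was 0.42 (0.35 to 0.49), with 28 higher and 4 lower. The reads without 10058-F4 were also split at random into equal parts, with domains called in the first with at least 3 reads per bin and the change measured in the second. These 411 domains had a median of 0.27 (0.19 to 0.33), with 39 higher and 20 lower. Domains called with 10058-F4, or overlapping one so called, were chosen for high values in that library, which favours ratios above 0. In the split reads, neither the reads measured nor those with 10058-F4 took part in the choice. The median was above 0 under each of these choices, and its size followed the choice.

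The change depended on the width of the domain. Domains of 6 bins had a median log2 ratio of 0.28 (0.15 to 0.36), domains of 7 to 9 bins 0.23 (0.09 to 0.31), and domains of 10 bins or more -0.07 (-0.21 to 0.04). In the split reads the same order was seen, at 0.37, 0.27 and 0.01. At domains called with 10058-F4 the medians were 0.71, 0.75 and 0.64, so there the widest domains differed little from the rest.

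**Figure D4:**
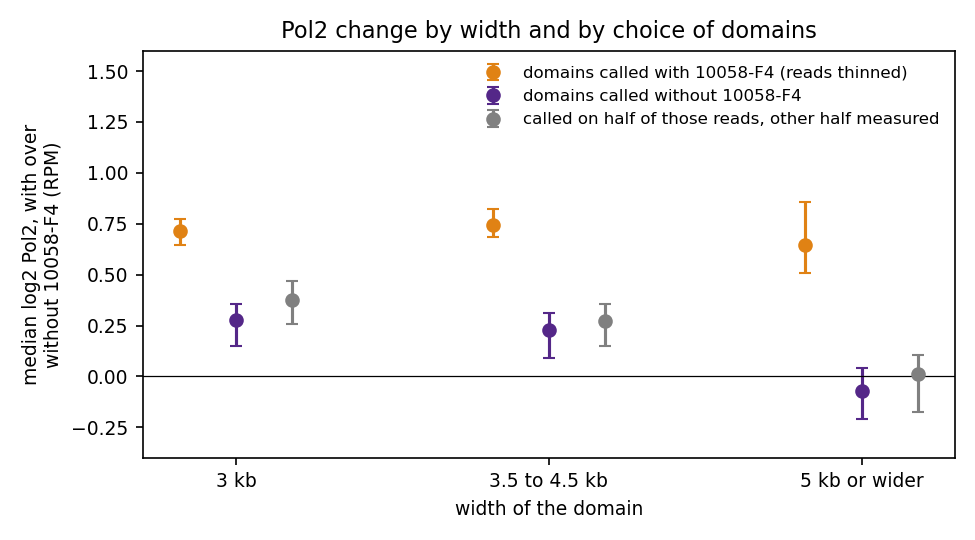
Median log2 ratio of Pol2 RPM with over without 10058-F4 in broad domains of 3 kb, 3.5 to 4.5 kb and 5 kb or wider, for domains called with 10058-F4, called without it, and called in one part of those reads and measured in the other. Bars are 95% order-statistic intervals of the median, and the medians of the widest domains are 0.64, -0.07 and 0.01.

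The level depends on what is taken as the common scale. Bins of 10 kb outside qualifying bins held 44.4% of the Pol2 reads with 10058-F4 and 54.4% of those without. Scaling to these reads in place of all reads moved the log2 ratios up by about 0.29. The medians became 0.47 over the broad domains, 0.67 over runs of 3 to 5 bins and 0.13 over all 32015 runs. This scaling gave 82 domains 2-fold or more higher and 32 lower. Since it moves the ratios nearly alike, it could not change the order of the medians. That of the broad domains was below that of runs of 3 to 5 bins and above that of all runs. With 1 library on each side, the compound and the library cannot be told apart.

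Among the 10 widest domains Pol2 moved in both directions. At chr13:43795001-43820000 Pol2 was 22.3 RPM per kb with 10058-F4 and 32.5 without, a ratio of 0.689 (95% counting interval 0.650 to 0.730). At chr11:117632001-117645500 it was 5.47 with and 15.6 without (ratio 0.351, 0.307 to 0.402), and at chr2:34758501-34769000 it was 7.0 with and 18.7 without (0.373, 0.325 to 0.428). These last domains were the only ones of the 10 that were more than 2-fold lower. The opposite direction was seen at chr11:98957501-98972000, with 46.4 RPM per kb with 10058-F4 and 28.3 without (1.64, 1.53 to 1.76), and at chr11:69215501-69228500, with 37.1 and 24.1 (1.54, 1.42 to 1.67). The remaining 5 had ratios between 0.808 and 1.27.

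Most domains with a 2-fold or larger decrease stayed above 2 times IgG with 10058-F4. At chr2:129970001-129973000 the libraries held 26 Pol2 reads with 10058-F4 and 79 without, or 1.69 and 11.1 RPM per kb (ratio 0.153, 0.0939 to 0.240). At chr7:24794501-24801000 there were 61 reads with and 161 without (0.176, 0.129 to 0.237), and at chr10:92693001-92696000 43 and 99 (0.201, 0.137 to 0.291). The domain chr4:44630001-44633500 had 32 reads with and 70 without (0.212, 0.135 to 0.326), and chr9:7788001-7793500 had 54 and 99 (0.253, 0.178 to 0.356). Over the 40 domains that were 2-fold or more lower, Pol2 with 10058-F4 had a median log2 value over its IgG of 2.11. Over all 502 domains it was 4.06. The 40 were picked for low Pol2 with 10058-F4, so a lower value there follows from the choice. Without 10058-F4 the median log2 value of Pol2 over IgG was 3.83 in the 40 and 3.94 in all domains. Of the 40, 4 were under 2 times IgG. Below the minimum of 100 summed reads set for naming, chr4:44595001-44598000 (10 reads with, 52 without) and chr6:72359001-72362000 (8 with, 42 without) had the lowest log2 ratios of all, at -3.42 each; they were picked out after their values were seen.

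Domains with a 2-fold or larger change in either direction were mostly of low density, and those with lower Pol2 were often neighbours. The 40 had a median Pol2 density without 10058-F4 of 9.32 RPM per kb, and 29 of them were among the 169 domains of lowest density (5.41 to 12.8 RPM per kb), 6 among the next 169 and 5 among the 164 densest. The 30 domains that were 2-fold or more higher fell into the same classes as 18, 7 and 5. Low density in the library that chose the domains means few reads there, so counting error is largest in these. Of the 40, 26 lay within 20 kb of another broad domain, as did 6 of the 30 that were 2-fold or more higher and 171 of all 502. In chr9:7763001-7793500 all 5 domains were lower with 10058-F4, with log2 ratios from -1.97 to -0.40 and a median of -1.61. The first of these, chr9:7763001-7766000, was a dense peak with 26.8 RPM per kb with 10058-F4 and 35.3 without, and the other 4 had 1.91 to 2.84 with it and 6.49 to 9.39 without. All 4 domains of chr7:24794501-24842500 were also lower (-2.50 to -0.33), as were the 4 of chr7:110012001-110080500 (-0.71 to -0.15), which include the second widest domain. All 4 domains of chr11:115428001-115463000 were higher (0.12 to 0.38). Over the 71 groups, every ratio was above 0 in 19, every ratio below 0 in 22, and the signs were mixed in 30.

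The largest increases were all in domains of 3 kb, the minimum width. At chr8:11007001-11010000 Pol2 was 72.8 RPM per kb with 10058-F4 and 16.4 without (ratio 4.44, 3.66 to 5.41), from 1120 and 117 reads. At chr1:130418001-130421000 it was 60.2 with and 19.8 without (3.04, 2.55 to 3.66). On chromosome 17, chr17:33912501-33915500 had 24.8 with and 8.69 without (2.85, 2.17 to 3.79), and its neighbour chr17:33893501-33896500 had 28.7 with and 11.2 without (2.55, 2.01 to 3.28). The fifth was chr2:158424001-158427000, with 22.2 and 8.13 (2.73, 2.06 to 3.67).

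The ratio of Pol2 with over without 10058-F4 was slightly larger at the top of the domain than in the rest. Summed over 501 domains, Pol2 in the 1500 bp around the highest bin was 1.16 times as high with 10058-F4 as without (95% counting interval 1.15 to 1.18), and in the rest of the domains 1.11 times (1.09 to 1.12). With the domain of high IgG included the ratios were 1.12 and 1.05. The highest bin was picked in the library without 10058-F4, which favours high values of that library at the top. Of the 502 domains, 262 had a higher share of reads with 10058-F4 in the 3 bins so picked. The 3 bins at the top of the library with 10058-F4 held a median of 57.1% of its reads and 51.9% of those without. The share was higher with 10058-F4 in 368 domains, and that choice favours the library with 10058-F4.

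Myc at the broad domains was modest, and its size differed between the libraries of one state. With 10058-F4 the median log2 of Myc over IgG was 0.21 (0.17 to 0.28). In B cells given LPS alone it was 1.14 (95% interval 1.06 to 1.21) in replicate 1 and 0.36 (0.28 to 0.45) in replicate 2. It was 0.32 (0.28 to 0.36) in untreated B cells, and 0.67 (0.60 to 0.80) in T cells at 4 h. The LPS values are over the IgG that had chosen the bins for low IgG. Over the pooled IgG of 10058-F4 and untreated B cells they were 0.96 (0.89 to 1.0) in replicate 1 and 0.13 (0.07 to 0.20) in replicate 2. LPS replicate 1 was highest and T cells at 4 h next under both controls, while LPS replicate 2 was above untreated B cells and LPS with 10058-F4 under its own IgG and below both under the other. The IgG libraries weigh on these medians: without IgG replicate 3 the LPS values were 0.91 and 0.16, without IgG replicate 2 they were 1.30 and 0.52, and without IgG replicate 2 of its own state the value with 10058-F4 was 0.04. The library labelled T14 Myc had -1.64 (-1.81 to -1.51), that is, fewer reads than the library labelled T14 IgG. The same medians over all runs tested, whose filter counts these Myc reads too, were 0.11 with 10058-F4, 0.83 and 0.39 with LPS alone, 0.32 in untreated B cells, 0.89 in T cells at 4 h and -1.77 in the library labelled T14 Myc. The broad domains were above these values with 10058-F4 and in LPS replicate 1. They were below them in LPS replicate 2 and in T cells at 4 h, and level with them in untreated B cells. Runs of 3 to 5 bins had medians of 0.30 with 10058-F4, 1.19 and 0.63 with LPS alone and 0.31 in untreated B cells. In T cells at 4 h they had 0.86, and in the library labelled T14 Myc -1.89. Broad domains were thus lower than these runs except in untreated B cells and, by the titles, the library labelled T14 Myc. With the antibodies of the file names the signs of the T14 values turn, and the broad domains would be lower there too.

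**Figure D5:**
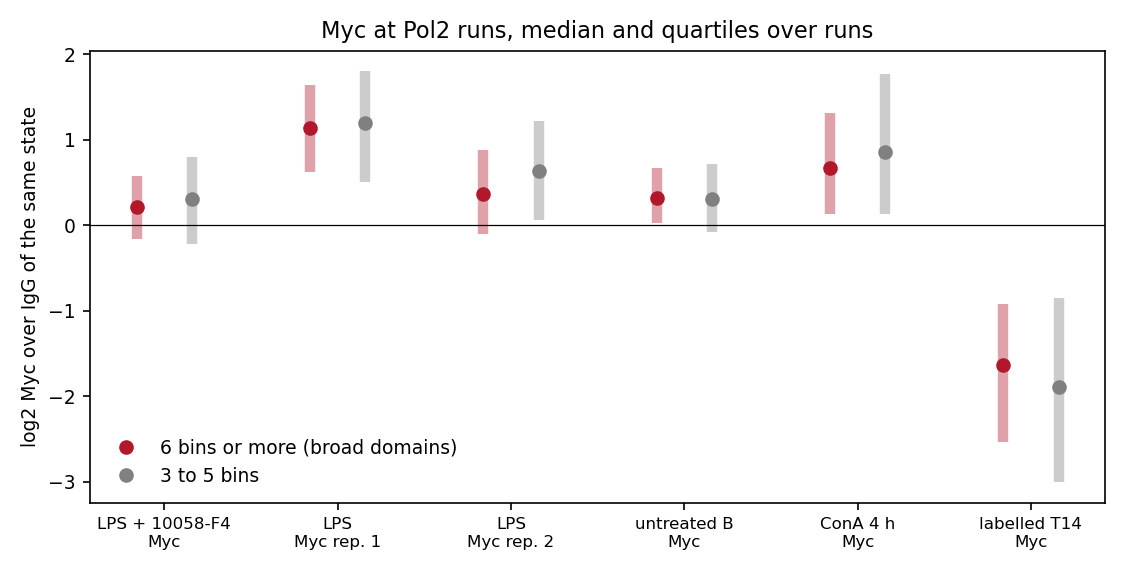
Log2 of Myc over IgG of the same state in broad domains (red, left of each pair) and in runs of 3 to 5 bins (grey), per Myc library, with medians as points and quartiles as bars. In broad domains the medians are 0.21 with 10058-F4, 1.14 and 0.36 with LPS alone, 0.32 in untreated B cells, 0.67 in T cells at 4 h and -1.64 in the library labelled T14 Myc.

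Domains with Myc at 2 times IgG or more were most frequent in LPS replicate 1. With 10058-F4 there were 47 (9.36%), against 18.6% of all runs tested. LPS replicate 1 had 288 (57.4%), against 43.9% of all runs tested, and LPS replicate 2 had 96 (19.1%), against 28.1%. Untreated B cells had 49 (9.76%), against 22.9%, T cells at 4 h 179 (35.7%), against 48%, and the library labelled T14 Myc 7 (1.39%), against 8.31%. Among narrow runs the share rose with width in the LPS replicates and was lowest in single bins. It was 46.5% and 29.1% in runs of 2 bins, and 57.7% and 34.3% in runs of 3 to 5 bins. In the remaining libraries it was highest in single bins and lowest in the broad domains. Narrow runs hold few reads, so their ratios scatter more widely on both sides. The part of this scatter in the shares was not tested.

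Summed reads give the level without that scatter. Over 501 domains the fold of Myc over IgG was 1.18 (95% counting interval 1.15 to 1.22) with 10058-F4, 2.39 (2.33 to 2.44) and 1.39 (1.36 to 1.43) with LPS alone, 1.26 (1.23 to 1.29) in untreated B cells and 1.59 (1.53 to 1.65) in T cells at 4 h. Over the pooled IgG of 10058-F4 and untreated B cells, which had no part in choosing the bins, the LPS folds were 2.07 (2.02 to 2.11) and 1.20 (1.17 to 1.23), which puts replicate 2 below untreated B cells. The library labelled T14 Myc had 0.290 (0.277 to 0.303). Runs of 3 to 5 bins had 1.28 with 10058-F4, 2.67 and 1.75 with LPS alone, 1.23 in untreated B cells and 1.77 in T cells at 4 h, so the broad domains were lower except in untreated B cells. With the domain of high IgG included, the folds were 0.998 with 10058-F4, 2.03 and 1.30 with LPS alone, 1.10 in untreated B cells and 0.939 in T cells at 4 h.

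Among the broad domains the medians of Myc were lower over the widest ones. In domains of 10 bins or more the median log2 value was 0.09 with 10058-F4, 0.96 and 0.20 with LPS alone, 0.30 in untreated B cells and 0.63 in T cells at 4 h. In domains of 6 bins it was 0.28, 1.22, 0.51, 0.37 and 0.75 in the same libraries. The 95% intervals of the 2 width classes overlap except in LPS replicate 2, where 8 of 97 domains of 10 bins or more and 56 of 212 domains of 6 bins had Myc at 2 times IgG or more.

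Myc followed the Pol2 peak inside the domain in LPS-treated B cells. In the 1500 bp around the highest Pol2 bin, Myc was 2.86 times IgG in LPS replicate 1 and 1.75 times in replicate 2, against 2.06 and 1.15 times in the rest of the domains. The quotient of top and rest was 1.39 (1.32 to 1.46) in replicate 1 and 1.52 (1.44 to 1.6) in replicate 2. With 10058-F4 the top had 1.30 times IgG and the rest 1.11 times, a quotient of 1.17 (1.11 to 1.24). In T cells at 4 h the values were 1.75 and 1.47, a quotient of 1.19 (1.10 to 1.28), and in untreated B cells they were 1.27 and 1.25, a quotient of 1.02 (0.974 to 1.07). With the domain of high IgG kept, the quotient in untreated B cells was 1.05 (1.01 to 1.10), so whether the interval included 1 depended on 1 domain there. It was 1.17 (1.12 to 1.22) with 10058-F4, 1.39 (1.33 to 1.46) and 1.40 (1.34 to 1.46) with LPS alone and 1.20 (1.14 to 1.27) in T cells at 4 h. In the library labelled T14 Myc the top had 0.224 and the rest 0.352 times the reads of the library labelled T14 IgG, a quotient of 0.637 (0.581 to 0.699).

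Myc was tested with limma-voom over the same 22490 runs. LPS Myc was compared with the IgG of LPS with 10058-F4 and of untreated B cells, because the IgG libraries of LPS alone had chosen the bins. In that test 2 of the 502 broad domains were higher than IgG and 1 was lower, against 0.0934% higher and 0.00445% lower of all runs tested. The domains that were higher were chr1:88188501-88191500 (log2 difference 3.66, SE 0.62, adjusted p = 5.19e-05) and chr6:86490501-86493500 (2.78, SE 0.60, adjusted p = 0.0083). The one that was lower was the domain of high IgG on chromosome 17 (-1.21, SE 0.15, adjusted p = 7.3e-12). At an unadjusted p under 0.05, 57 domains were higher and 1 was lower, against 1260 and 337 of the 22490 runs tested. Without LPS Myc replicate 1 no domain was called higher and 1 was lower, and without IgG replicate 2 of LPS alone 14 were higher and 1 was lower. Without IgG replicate 1 of 10058-F4, 1 was higher and 0 were lower.

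The remaining Myc libraries gave almost no calls. With limma-voom, Myc with 10058-F4 over IgG gave 0 domains higher and 0 lower (0% of all runs tested), with 1 and 1 at an unadjusted p under 0.05. Untreated B cells gave 0 and 0 (0% of all runs tested), with 0 and 1. T cells at 4 h gave 0 higher and 1 lower (0% and 0.00445% of all runs tested), again the domain of high IgG, with 19 and 2 at an unadjusted p under 0.05. Of the 22490 runs tested, 284 were higher and 268 lower at that level with 10058-F4. In untreated B cells 395 and 38 were, and in T cells at 4 h 776 and 255. Limma-trend on log2 RPM called no domain in any of these 3 tests. Each of the 3 rests on a lone Myc library that is assumed to vary like the replicated groups. Leaving out single libraries moved these counts by at most 1, and the domain then called was again the one of high IgG.

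At chr1:88188501-88191500, the domain with the highest Myc in LPS-treated B cells, the Myc libraries held 20 reads with 10058-F4, 101 and 84 with LPS alone, 48 in untreated B cells and 69 in T cells at 4 h. The IgG libraries held 9 and 15 reads with 10058-F4, 12, 3 and 10 with LPS alone, 8 in untreated B cells and 5 in T cells at 4 h. Myc reads exceeded those of every IgG library in each of these states. The log2 values over IgG were 0.84 with 10058-F4, 4.07 and 3.35 with LPS alone, 1.68 in untreated B cells and 2.43 in T cells at 4 h. Pol2 there was 26.7 RPM per kb with 10058-F4 and 33.7 without. The library labelled T14 Myc held 2 reads at this domain and the library labelled T14 IgG held 110.

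At the domain chr6:86490501-86493500 Myc was highest in T cells at 4 h and lowest in untreated B cells, with log2 Myc over IgG of 1.64 with 10058-F4, 3.18 and 2.52 with LPS alone, 0.55 in untreated B cells and 3.43 in T cells at 4 h. Its Myc reads were 25 with 10058-F4, 67 and 58 with LPS alone, 48 in untreated B cells and 85 in T cells at 4 h. It was also among the 5 domains with the highest Myc value with 10058-F4. The other domains with the highest Myc in LPS-treated B cells were chr11:6426001-6429000 (log2 3.52 and 2.70 in the 2 replicates), chr4:147434001-147437500 (3.12 and 2.84) and chr14:113922001-113925000 (3.38 and 2.55). All 5 were 3 or 3.5 kb wide, and in each the library labelled T14 IgG held more reads (48 to 110) than the library labelled T14 Myc (1 to 6).

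Low Myc values rested on few reads. The lowest mean in LPS-treated B cells was at chr7:30135501-30139500, with 12 and 0 Myc reads and 36 pooled IgG reads. For replicate 2, against a floor of 3 reads, Myc was at least 3.81-fold lower than IgG, while replicate 1 had a log2 value of 0.51. At chr7:24794501-24801000, one of the domains with the largest Pol2 decrease, both replicates were below IgG, at -0.92 and -1.15. The other 3 were chr16:18974001-18977500 (0.29 and -1.99), chr7:44120501-44123500 (0.11 and -1.53) and chr7:44220001-44223000 (-0.27 and -1.08), with 2 to 8 Myc reads in each replicate.

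The domains with the highest Myc with 10058-F4 were chr15:101102001-101105000, chr7:44120501-44123500, chr17:55897501-55901000, chr6:86490501-86493500 and chr15:36736501-36739500, with log2 values of 1.63 to 1.73 from 13 to 25 Myc reads. In untreated B cells they were chr6:48604001-48607500 (log2 1.95, 30 reads), chr4:44630001-44633500 (1.92, 43 reads), chr12:100600001-100603500 (1.79, 52 reads), chr2:152519501-152523500 (1.71, 49 reads) and chr7:109955001-109958500 (1.70, 37 reads). In T cells at 4 h the highest log2 values came from domains where IgG held 0 reads, which was so in 10 of the 502. Against a floor of 3 IgG reads, Myc there was at least 2.94-fold higher at chr5:114074001-114077000 (22 reads) and at least 2.27-fold higher at chr15:82050001-82054500 and chr19:4230001-4233000 (17 reads each). It was at least 2.0-fold higher at chr11:96638001-96641000 (15 reads) and at least 1.87-fold higher at chr5:147649001-147652000 (14 reads). With domains of 0 reads set to such bounds, the median in T cells at 4 h was 0.66. The lists of the 3 states shared no domain.

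The effect of 10058-F4 on Myc at the broad domains depended on which LPS Myc library it was set against. Myc RPM with 10058-F4 differed from LPS replicate 1 by a median log2 of -0.81 (-0.89 to -0.74), with 78 of 502 domains above 0. Against replicate 2 the median was -0.01 (-0.09 to 0.05), with 245 above 0. The replicates thus lay further apart from each other than replicate 2 did from the library with 10058-F4. Over all runs tested the medians were -0.43 and -0.07. Taken over the IgG of each state, the medians at the broad domains were -0.93 (-1.0 to -0.82) against replicate 1 and -0.18 (-0.25 to -0.09) against replicate 2. Over all runs tested these were -0.66 and -0.21. Replicate 1 had reads of 24 to 30 bases and 5.29% of its reads at a repeated 5′ end, while replicate 2 and the library with 10058-F4 had reads of 45 bases. The part of these differences in the result was not tested.

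In limma-voom the difference between Myc with 10058-F4 and LPS Myc called 0 domains higher and 0 lower (0% of all runs tested). At an unadjusted p under 0.05, 1 domain was higher and 10 were lower, against 298 and 531 of the 22490 runs tested. Limma-trend called 0 as well, with 0 and 11 at an unadjusted p under 0.05, against 127 and 505 of all runs tested. The median log2 difference was -0.38 over the domains and -0.18 over all runs tested. It was -0.01 without LPS replicate 1 and -0.81 without replicate 2. Leaving out replicate 2, or IgG replicate 2 of LPS alone, gave 1 domain called higher, the one of high IgG.

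LPS against no treatment gave the same picture. Myc RPM in LPS replicate 1 differed from untreated B cells by a median log2 of 0.51 (0.46 to 0.58) and replicate 2 by -0.30 (-0.35 to -0.23), with 379 and 169 of 502 domains above 0. Over all runs tested the medians were 0.12 and -0.30, so replicate 2 differed alike at the broad domains and over all runs. Over IgG the medians were 0.76 (0.64 to 0.84) and 0.05 (-0.04 to 0.11) at the broad domains, and 0.42 and -0.0037 over all runs tested. In limma-voom 0 domains were higher and 0 lower (0% of all runs tested). At an unadjusted p under 0.05, 11 domains were higher and 1 was lower, against 171 and 407 of the 22490 runs tested. Limma-trend called 0, with 4 and 1 at that level, against 89 and 63 of all runs tested. The median log2 difference was 0.07 over the domains and -0.08 over all runs tested. Over the domains it was -0.27 without LPS replicate 1 and 0.54 without replicate 2. Without IgG replicate 2 of LPS alone 1 domain was called higher. The direction of the LPS difference in Myc at these domains therefore rested on single libraries.

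Domains ranked alike in the LPS Myc replicates even though their levels differed. Over 501 domains the Spearman correlation of Myc RPM per kb between the LPS replicates was 0.59. Each correlated with Myc in T cells at 4 h at 0.55 and 0.57, with Myc with 10058-F4 at 0.40 and 0.40, and with untreated B cells at 0.34 and 0.41. With the Pol2 density of the domain the values were 0.29 for Myc with 10058-F4, 0.46 and 0.47 for the LPS replicates, and 0.36 for untreated B cells. IgG replicates 1 and 3 of LPS alone correlated with each other at 0.27 and with Pol2 at 0.23 and 0.38. These correlations describe the domains, which share base composition and mappability between libraries, and domains are not independent replicates. The correlation of Pol2 with 10058-F4 and without it was 0.72.

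In the domains where Pol2 was lower with 10058-F4, the medians of Myc were lowest with LPS alone, in untreated B cells and in T cells at 4 h. In the 40 domains that were 2-fold or more lower the median log2 of LPS Myc over IgG was 0.41 (0.06 to 0.73) in replicate 1 and -0.12 (-0.38 to 0.22) in replicate 2. In the 30 domains that were 2-fold or more higher it was 0.89 (0.47 to 1.38) and 0.31 (0.15 to 0.65), and in the other 432 it was 1.20 (1.13 to 1.26) and 0.42 (0.32 to 0.51). In each LPS replicate the interval of the lower domains overlaps that of the higher ones and lies below that of the others. The medians in the lower, higher and other domains were 0.18, 0.35 and 0.33 in untreated B cells and 0.37, 0.91 and 0.67 in T cells at 4 h. With 10058-F4 they were 0.23, 0.11 and 0.21, and their intervals overlap. The lower domains were also those of lowest Pol2 density, and the part of density in this order was not tested.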

How the data were processed

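The deposited files hold aligned read positions of ChIP-seq libraries, 1 line per read with chromosome, start, end and strand, as the authors made them; they hold no counts, scores or peaks. The submitters' processing notes name the genome build mm8 and the tools Bowtie 0.12.7 and CASAVA 1.0, with no settings. Positions were used as deposited, and since their origin (0 or 1) is not recorded, a coordinate may be off by 1 base.

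Reads on chromosomes 1 to 19 were counted by midpoint in 500-bp bins with NumPy 2.4.6, and no reads were removed. RPM is per 1000000 of these reads. Counts in all Pol2 runs of 13 libraries (the Pol2 library that chose the runs and the T14 libraries left out) were tested with limma 3.58.1 (voom, library size only, Benjamini-Hochberg over 22490 runs, threshold 0.05). These counts were made here from the deposited positions, and a count model of the edgeR kind was not run on them. The script was tested on simulated data. Counting intervals are exact binomial intervals of a ratio, and intervals of medians are order-statistic intervals, both at 95%. Libraries of one group differed by more than sampling noise (chi-square per degree of freedom 1.34 to 1.54) and were each counted on their own. Named domains were the 10 widest, the 5 with the highest Pol2, the 5 highest and 5 lowest Pol2 changes with at least 100 reads, the 5 highest and 5 lowest LPS Myc values, the 5 highest in the other Myc libraries except those of T14, and domains called in a Myc test. The members, groupings and lists were chosen with earlier results of these data known. Alternatives covered the rule, pseudocount, scaling, filter, test, repeated reads, feature table and single libraries.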

Additional observations from a re-analysis of the deposited data

Results flagged for a closer look

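Chromosome X, which the rule leaves out, held 6 broad Pol2 domains in B cells given LPS alone when it was treated in the same way, and 0 in each of the 3 IgG libraries put through the rule. They were drawn from 444 runs. The widest was chrX:11234501-11239500, with 126 Pol2 reads and 31 pooled IgG reads over 5 kb. It had neighbours at chrX:11243501-11247000 (115 Pol2 and 18 IgG reads) and chrX:11291501-11294500 (76 and 18 reads). The other 3 were chrX:9873501-9876500 (46 and 13 reads), chrX:73761501-73765000 (87 and 15 reads) and chrX:162549501-162553500 (168 and 28 reads). The Pol2 library had 36.9% as many reads on chromosome X as on chromosome 3, while 2 of the 3 pooled IgG libraries had 66.4% and 65.9%, so the ratio over IgG on chromosome X has another base than on chromosomes 1 to 19.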

How the results depend on the processing

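Of 256 alternatives computed, 181 kept the direction and stayed within the margin of the reported value, 74 moved and 1 reversed. Unless said otherwise below, the cause of a move was not tested.

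The number of broad domains (502) follows the rule: 256 with at least 8 reads in a bin, 268 at 6 times IgG, 929 with runs of 5 or more bins (median width 3 kb), 183 with runs of 8 or more (5 kb) and 1093 with 1 failing bin allowed. Leaving out each IgG replicate gave 325 to 490 domains. With 10058-F4 the count was 1238 at full depth in place of 765, and 551 to 763 without an IgG replicate.

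The median log2 Pol2 ratio (0.18) was 0.47 under scaling by background bins, 0.27 at domains called on split reads and 0.42 at domains overlapping one called with 10058-F4; at domains called with 10058-F4 (0.72) it was 1.01 under background scaling. Among named domains, background scaling gave 2.44 at chr8:11007001-11010000 and 1.90 at chr1:130418001-130421000.

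For Myc over IgG, a pseudocount of 1 RPM gave medians of 0.99 (LPS replicate 1), 0.27 (untreated), 0.55 (T cells at 4 h) and -1.27 (labelled T14 Myc). Background scaling gave 1.22 in LPS replicate 1. With IgG left out and the median over all runs subtracted, the values were 0 with 10058-F4, 1.23 and 0.90 with LPS alone, 0.21 in untreated B cells, 0.60 in T cells at 4 h and 2.40 in the library labelled T14 Myc, the reversal. That quantity is dominated by single bins, which hold a median of 0 reads in that library. Leaving out an IgG replicate gave 0.045 to 0.29 with 10058-F4, and 0.91 to 1.30 and 0.16 to 0.52 with LPS alone. Over the pooled IgG of 10058-F4 and untreated B cells the LPS medians were 0.96 and 0.13. Over the IgG with the neighbouring number in its file name, the median was 0.29 with 10058-F4 and 0.70 in LPS replicate 2.

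The quotient of Myc at the Pol2 top and in the rest, with all domains kept, was 1.39 and 1.40 in the LPS replicates. With a top of 500 bp it was 1.55 and 1.57, 1.11 in untreated B cells and 0.615 in the library labelled T14 Myc. With a top of 2500 bp it was 1.28 in LPS replicate 2. Without the domain of high IgG it was 1.52 in LPS replicate 2 and 0.637 in the library labelled T14 Myc.

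Pol2 over IgG with 10058-F4 called 458 to 494 domains without single libraries and 858 of the 3-kb windows that overlap a domain. Scaling by the median log ratio over all runs left 1 call, that of the domain of high IgG, which was lower. All runs were chosen for Pol2, so this scaling removes most of the Pol2 signal that they share. The median log2 difference over all runs tested was then 0.12. For LPS Myc over IgG (3 calls), 1 was called by limma-trend, 1 under that scaling, 7 with a mean of at least 5 reads, 1 in 3-kb windows, 9 against the IgG of LPS alone, 0 with 45-base libraries only and 1 to 15 without single libraries. Myc with 10058-F4 over IgG had 1 call with no filter and 1 without the T4 libraries, and 0 to 1 without single libraries. Untreated B cells had 1 call with no filter and 0 to 1 without single libraries. T cells at 4 h had 0 calls by limma-trend, with a mean of at least 5 reads, in 3-kb windows, and without the domain of high IgG. The contrast of Myc with and without 10058-F4 had 1 call under the median scaling and 1 with no filter, and 0 to 1 without single libraries; LPS against no treatment had 0 to 1 without single libraries.

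LPS Myc and IgG libraries share marks in their titles that could pair them. Their deviations correlated at 0.0364 over 22490 runs. These runs held a median of 3 reads in each LPS Myc library, and counting noise lowers such a correlation. It therefore cannot tell if the libraries were paired. Myc replicate 1 and IgG replicate 1 of LPS alone also shared a read length of 24 to 30 bases. A replicate block for these pairs gave 487 domains for Pol2 with 10058-F4, 3 for LPS Myc, 1 each for Myc with 10058-F4, untreated B cells and T cells at 4 h, 1 for Myc with against without 10058-F4 and 0 for LPS against no treatment. The single domain in each case was that of high IgG.

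The choices on split reads, overlapping domains, the domain of high IgG, read length, numbering of files and the pooled IgG were added after the data were seen. With 1 Pol2 library per treatment, no Pol2 difference can be set against the spread between replicates. The median domain held 16 Myc reads with 10058-F4 and 19 and 15 with LPS alone, which limits what single domains can show.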
